A study of Mus musculus with 16 samples.

Results

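10 genes were followed through the 2 T cell subsets of this study: Nr3c1, which encodes the glucocorticoid receptor, 4 genes that glucocorticoids are known to induce (Tsc22d3, Fkbp5, Sgk1 and Ddit4), and 5 genes for other nuclear receptors (Nr1h2, Nr1d2, Nr2c2, Esrra and Vdr). They were chosen by symbol, and all 10 of 10 were found among the 47643 gene identifiers of each deposited table. The animals were TRaGS mice, in which the DNA binding of thyroid hormone receptor alpha is abrogated, and TRaWT mice, their wild-type littermates. From the spleen of each of 8 mice, 4 per genotype, CD25- CD4+ T cells (labelled naive, here CD4) and CD25+ CD4+ regulatory T cells (Treg) were sorted, which gave 16 libraries in 4 groups of 4. The labels name no treatment and no age for either genotype, and they do not tie the mutation to 1 cell type. Animal numbers in the labels pair the subsets of a mouse. TRaGS replicate 1 carries an animal number close to those of the TRaWT mice, replicate 2 one farther off, and replicates 3 and 4 the farthest. By the leading numbers of the labels, TRaGS replicates 1 and 2 lie within the run of the TRaWT libraries, and replicates 3 and 4 lie beyond it. What the numbers stand for is not stated.

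Nuclear receptors are transcription factors that a small hormone or metabolite switches on in the cell, and several have no known hormone. The glucocorticoid receptor sits in the cytoplasm with Hsp90 chaperones, enters the nucleus when corticosterone binds, and drives genes that hold T cell activation and survival in check. The thyroid hormone receptors and most of the other receptors described here sit on DNA, as monomers, homodimers or heterodimers with retinoid X receptors, at sites built from the half-site AGGTCA. Nr1d2 (REV-ERB beta) is a repressor of the circadian clock, and the clock activator Arntl is its classical target.

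No member passed the adjusted test between genotypes in either subset, against 0.0575% of all genes tested in CD4 and 0.959% in Treg. The 2 members whose 4 TRaGS libraries all lay outside the range of the 4 TRaWT libraries were Nr1d2 and Sgk1. Both had lower values in CD4 cells of TRaGS mice, where 3.16% of all genes tested were without overlap. Nr1d2 also ran in opposite directions between the subsets of each genotype: lower in Treg than in CD4 in 4 of 4 TRaWT mice, and higher in 4 of 4 TRaGS mice. This pattern was held by 0.686% of genes tested in both subsets. Fkbp5 had the smallest p in Treg, with higher values in TRaGS. Tsc22d3, Sgk1 and Ddit4 had lower values in Treg than in CD4 cells in 8 of 8 mice, against 3.41% of genes. For Ddit4 the smallest difference was -0.006 log2 units, and another scaling gave 7 of 8 mice.

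Promoter stretches of 4 members these results turn on are shown to set the 2 classes of half-site beside the values; 3 were picked because they hold a half-site, and the Fkbp5 stretch because it holds none. RefSeq windows on GRCm38.p6, from 250 bases before to 50 after an annotated start, were available for 9 of the 10 members, 16 windows in all. Bases that GENCODE annotates as exon were left out. Capitals mark AGAACA or its complement TGTTCT (the glucocorticoid receptor half-site), AGGTCA or TGACCT, and the E-box CACGTG, which clock activators bind and which was added after the values were seen. In Sgk1 the TGTTCT near the 5′ end overlaps the E-box.
Sgk1, the fifth of its annotated starts, chr10:21993640-21993889, plus strand, inside an intron of longer Sgk1 transcripts: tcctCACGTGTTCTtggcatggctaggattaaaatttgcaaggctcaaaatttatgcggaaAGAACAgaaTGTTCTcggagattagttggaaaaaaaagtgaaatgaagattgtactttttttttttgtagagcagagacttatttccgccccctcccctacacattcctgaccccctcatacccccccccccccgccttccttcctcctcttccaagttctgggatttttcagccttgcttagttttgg
Nr1d2, chr14:18239128-18239356, minus strand: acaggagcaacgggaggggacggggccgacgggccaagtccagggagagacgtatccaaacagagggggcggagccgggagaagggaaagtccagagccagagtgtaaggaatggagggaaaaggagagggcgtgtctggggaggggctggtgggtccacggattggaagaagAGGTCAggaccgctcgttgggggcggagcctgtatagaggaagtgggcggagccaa
Tsc22d3, the second of its annotated starts, chrX:140600660-140600772, minus strand: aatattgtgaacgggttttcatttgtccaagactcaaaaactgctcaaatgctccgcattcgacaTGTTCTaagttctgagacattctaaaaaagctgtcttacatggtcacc
Fkbp5, chr17:28486150.0-28486399.0, minus strand: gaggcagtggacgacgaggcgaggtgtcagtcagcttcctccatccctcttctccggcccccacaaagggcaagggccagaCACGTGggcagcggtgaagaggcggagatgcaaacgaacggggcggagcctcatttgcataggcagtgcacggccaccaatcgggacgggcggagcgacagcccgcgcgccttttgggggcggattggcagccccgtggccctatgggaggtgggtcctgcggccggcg

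The Sgk1 stretch holds 2 of its glucocorticoid half-sites as an inverted repeat with a spacer of 3 bases, starting 189 bases before that start. On both strands, that inverted repeat was in 1 of the 16 member windows and in 3 of all 32851 RefSeq windows (0.00913%). The single half-site AGAACA was far more common, in 4 of the 16 windows against 19.0% of all windows. The AGGTCA half-site was in 3 of the 16 against 16.3%, with 1 match 77 bases before the Nr1d2 start. Neither half-site was in the windows of Fkbp5, Ddit4, Nr1h2, Nr2c2, Esrra or Vdr, in the other 2 windows of Tsc22d3 or in the sixth of Sgk1. CACGTG was in 2 of the 16, 1 each for Sgk1 and Fkbp5, against 7.15%. These matches describe letters in short windows, and 3′ tag reads do not show which start was used.

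The libraries were 3′ tag libraries, so that a read marks the end of a polyadenylated transcript. Recovered depth was 2679119 to 5095278 reads in CD4 and 2912038 to 4154027 in Treg, of which the gene Gm42418 took 21.1% to 41.1% and 20.8% to 33.0%. CD4 TRaGS replicate 2 stood apart: it was the deepest library, had the lowest Gm42418 share in CD4 and gave 14.4% of its reads to mitochondrially encoded genes (ribosomal RNA included), against 8.87% to 12.0% in the other CD4 libraries. It was the highest CD4 library in normalised counts for Nr3c1, Tsc22d3, Ddit4, Nr1h2 and Nr2c2 and the lowest for Fkbp5, Sgk1 and Esrra. Part of this ranking depends on the scale. On reads scaled to the library total without Gm42418, TRaGS replicate 1 was higher for Tsc22d3 (370 against 354 RPM) and Ddit4 (335 against 291). The other genes named kept their rank. The part of the depth, Gm42418 share and mitochondrial share of TRaGS replicate 2 in the values was not tested. Without this library the CD4 log2 fold changes were 0.14 for Nr3c1, 0.45 for Tsc22d3, 1.69 for Fkbp5, -0.75 for Sgk1, 0.26 for Ddit4, 0.63 for Nr1h2, -2.17 for Nr1d2, 0.21 for Nr2c2, -0.41 for Esrra and -1.28 for Vdr, with 0 called by limma. Within a subset, values are the authors' normalised counts. Between subsets, which were normalised separately, values are RPM, reads scaled to the library total without Gm42418. Foxp3, the factor that defines Treg, was at 15.2 to 74.9 RPM in CD4 and 376 to 570.4 in Treg. Cd3e was present in every library, at 323 to 629 RPM. Thra itself was at 36.0 to 92.0 RPM in CD4 and 37.4 to 88.3 in Treg, and tags from its 3′ end cannot show whether the receptor binds DNA, so they do not check the genotype. In bulk libraries such as these, fewer cells of a type and less RNA per cell cannot be told apart.

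**Figure D1:**
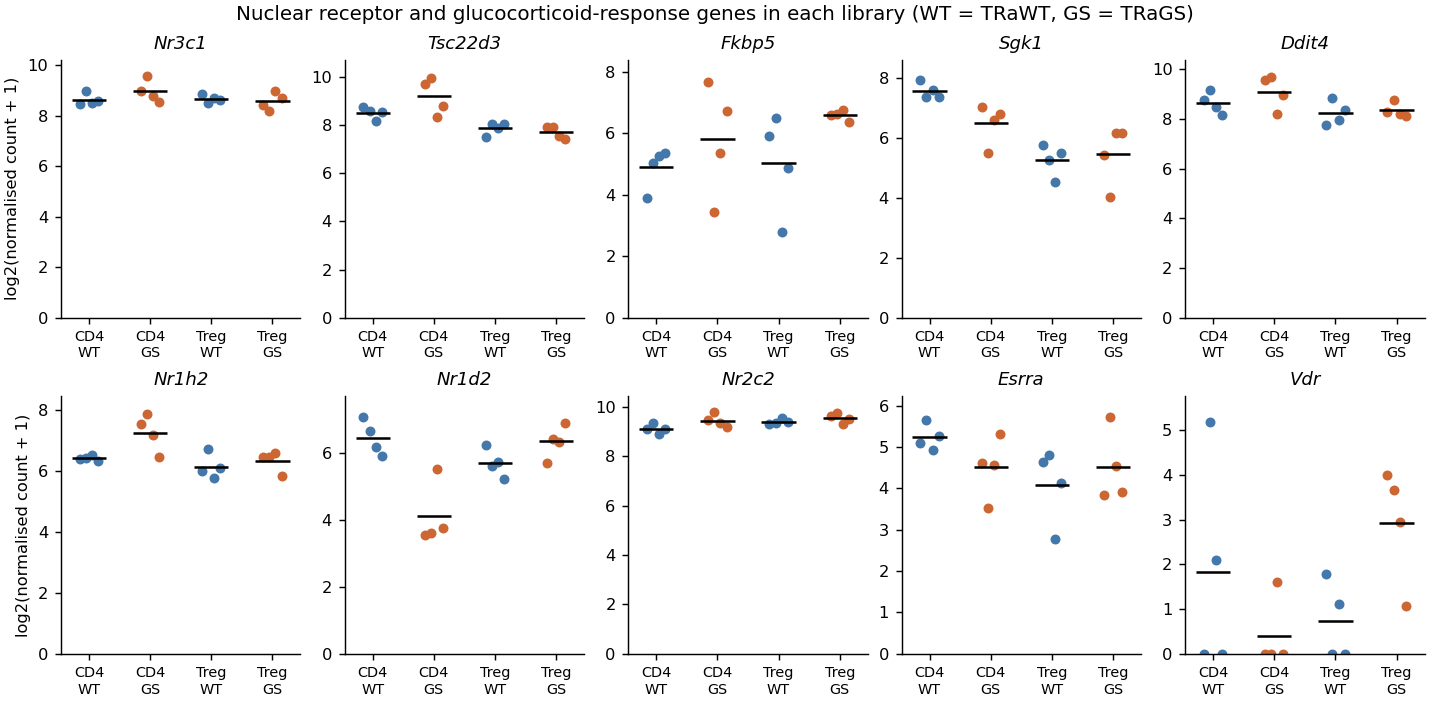
Each panel shows 1 gene. The vertical axis is log2(normalised count + 1), each point is 1 library (4 per group, in replicate order) and each bar is the group mean of these log2 values; CD4 and Treg were normalised separately, so levels compare within a subset. In CD4 the TRaGS points of Nr1d2 and Sgk1 lie below all TRaWT points, and in Treg 3 of 4 TRaGS points of Fkbp5 lie above all TRaWT points.

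Nr3c1 (chromosome 18, 39410545 to 39519421, minus strand, GRCm38), the receptor itself, had overlapping values in all groups. In CD4 the 4 TRaWT libraries held 354, 499.6, 358 and 379 normalised counts, and the 4 TRaGS libraries 503, 748, 436 and 374. In Treg the TRaWT values were 459, 359, 411 and 391, and the TRaGS values 344, 291, 494 and 414. The groups overlapped in both subsets, with CD4 TRaGS replicate 2 the highest of all. The log2 fold change of TRaGS over TRaWT was 0.34 ± 0.31 (SE) in CD4, with a 95% confidence interval of -0.27 to 0.94, and -0.09 ± 0.19 in Treg, with an interval of -0.47 to 0.29. Neither passed limma's test (adjusted p = 0.947 and 0.943).

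Among genes the receptor is known to induce, Tsc22d3 (chromosome X, 140539528 to 140600659), which encodes the leucine zipper protein GILZ that restrains T cell activation, showed a split within the TRaGS group. In CD4 its normalised counts were 426, 381, 286 and 373 in TRaWT, and 841, 1007, 327 and 441 in TRaGS. TRaGS replicates 1 and 2 stood above every other library, and replicates 3 and 4 lay near the TRaWT values. The log2 fold change was 0.70 ± 0.31 (limma p = 0.0216, adjusted p = 0.947, and 0.171 in an exact two-sided permutation test of 4 against 4). With TRaGS replicates 1 and 2 alone it was 1.34 (adjusted p = 0.0718), and with replicates 3 and 4 alone 0.07 (adjusted p = 0.996, limma). In Treg the values were 184, 264, 237 and 268 in TRaWT and 243, 245, 189 and 172 in TRaGS, which overlapped, with a log2 fold change of -0.17 ± 0.22.

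Ddit4 (chromosome 10, 59949669 to 59951834), whose product REDD1 restrains the growth kinase complex mTORC1 under stress and glucocorticoids, had the same split. Its CD4 values were 429, 578, 363 and 288 in TRaWT and 761, 826, 294 and 501 in TRaGS. Again TRaGS replicates 1 and 2 were the highest of the subset, and replicate 3 was the second lowest. The log2 fold change was 0.46 ± 0.30 over all 4 and -0.06 with replicates 3 and 4 alone. Treg values of Ddit4 were 215, 465, 251 and 330 in TRaWT and 313, 439, 296 and 277 in TRaGS, which overlapped (log2 fold change 0.11 ± 0.22).

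Sgk1 (chromosome 10, 21882184 to 21999903), a kinase that relays steroid and growth factor signals and phosphorylates Foxo factors, went the other way. In CD4 its values were 239, 161, 194 and 163 in TRaWT and 129, 43.8, 96.4 and 110.0 in TRaGS. All 4 TRaGS libraries lay below the lowest TRaWT library, with TRaGS replicate 2 the lowest. The log2 fold change was -1.08 ± 0.51 (95% interval -2.07 to -0.08, adjusted p = 0.947 with limma, 0.0339 before adjustment). The exact two-sided permutation p was 0.0286, the smallest that 4 against 4 allow. It was -1.30 with TRaGS replicates 1 and 2 alone and -0.85 with replicates 3 and 4 alone. In Treg Sgk1 was at 53.4, 37.2, 22.2 and 43.4 in TRaWT and at 42.4, 15.2, 70.3 and 70.7 in TRaGS. These overlapped, and the log2 fold change of 0.19 ± 0.52 turned to -0.53 with TRaGS replicates 1 and 2 alone.

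Fkbp5 (chromosome 17, 28399094 to 28517527), an Hsp90 co-chaperone that lowers the receptor's affinity for hormone and is one of its standard target genes, varied widely between libraries of the same group. In CD4 its values were 13.7, 31.7, 37.0 and 40.2 in TRaWT and 200.4, 9.90, 40.0 and 104 in TRaGS, so that TRaGS held both the highest and the lowest library. In Treg the TRaWT values were 59.2, 89.5, 5.83 and 28.2, and the TRaGS values 94.7, 97.6, 107 and 80.5. Here 3 of 4 TRaGS libraries were above all TRaWT libraries, and the TRaGS spread was small beside that of TRaWT. The Treg log2 fold change was 1.56 ± 0.51 (95% interval 0.54 to 2.59, limma p = 0.00362, adjusted p = 0.191, exact two-sided permutation p = 0.0571). It was 0.82 (adjusted p = 0.534) without TRaWT replicate 3, whose value rests on 5 reads, and 2.06 (adjusted p = 0.0475) without TRaWT replicate 2. On recovered reads edgeR gave 1.05 (adjusted p = 0.531).

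Markers of other cells were summed in the same libraries, with no test of the sums. The summed level of 16 B cell genes in Treg was 482 to 729.8 RPM in TRaWT and 868 to 1092 in TRaGS, and in CD4 it was 631 to 1136 in TRaWT and 491 to 629 in TRaGS. In Treg 12 of 14 tested B cell genes had positive fold changes and 1 was called higher, and in CD4 8 of 13 had negative ones with 0 called; none of the 16 was at 0 in all libraries of a group. Cd79a, a defining gene of B cells, was at most 0.495 RPM in Treg, and at most 0.529 in CD4 TRaWT, with 17.4 in 1 CD4 TRaGS library. The sum of 7 NK cell genes in CD4 was 30.8 to 45.5 in TRaWT and 56.8 to 92.5 in TRaGS, with 3 and 2 of the 7 at 0 throughout, and of the 2 tested 1 had a positive and 1 a negative fold change with 0 called. The sum of 6 plasma cell genes in Treg was 16.8 to 43.8 in TRaWT and 25.5 to 137 in TRaGS. Of the 6, 3 were at 0 in all TRaWT libraries and 0 in all TRaGS libraries. In limma 4 of 4 tested had positive fold changes (median 2.01), 2 had an unadjusted p under 0.05 and 0 were called. A gene at 0 throughout TRaWT can pass the minimum mean through TRaGS alone, and its positive sign then comes with the filter. The sum of 5 Treg identity genes in Treg was 2862 to 3234 in TRaWT and 3396 to 4157 in TRaGS, with 1 of the 5 called higher. The signs were mixed: 3 had positive and 2 negative fold changes (median 0.06). At an unadjusted p under 0.05, 2 were higher and 1 was lower. The part of these in the values of Fkbp5, Sgk1 and Nr1d2 was not tested.

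Nr1d2 (chromosome 14, 18204054 to 18239127), the clock repressor, had lower values in CD4 cells of TRaGS mice. Its normalised counts there were 135, 99.4, 70.8 and 58.5 in TRaWT and 10.8, 11.3, 45.1 and 12.6 in TRaGS. They rest on 48 to 167 reads in TRaWT and 11 to 44 in TRaGS. All TRaGS libraries were below all TRaWT libraries, and TRaGS replicate 3 stood apart from the other 3. The log2 fold change was -2.33 ± 0.90 (95% interval -4.10 to -0.57, limma p = 0.00966, adjusted p = 0.907, exact two-sided permutation p = 0.0286). It was -2.86 with TRaGS replicates 1 and 2 alone and -1.80 with replicates 3 and 4 alone.

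In Treg Nr1d2 was at 74.0, 48.3, 52.5 and 36.4 in TRaWT and at 51.5, 85.3, 79.2 and 119 in TRaGS. The groups overlapped, with a log2 fold change of 0.64 ± 0.39 (adjusted p = 0.670). In size the log2 fold change was larger in CD4 (-2.33) than in Treg (0.64), with opposite signs. The signed difference, Treg minus CD4, was 2.97 ± 0.61 log2 units (95% interval 1.58 to 4.36), from each mouse's Treg minus CD4 value. For this difference the test results follow. The limma p was 0.0010 and the adjusted p 0.604, and the 4 TRaGS mice lay above the 4 TRaWT mice (exact two-sided permutation p = 0.0286). Leaving out any 1 mouse gave 2.67 to 3.45.

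Arntl, the clock activator that REV-ERB proteins repress, is set beside Nr1d2. It was named by the rule for the clock list, which takes genes by their small p in these data. In CD4 it was at 8.07, 61.0, 26.1 and 39.0 normalised counts in TRaWT and at 4.89, 2.83, 17.4 and 4.58 in TRaGS. In Treg it was at 19.7, 15.1, 8.16 and 2.35 in TRaWT and at 36.5, 30.4, 108 and 37.0 in TRaGS. There all TRaGS libraries were above all TRaWT libraries, and 5.07% of genes tested in Treg were without overlap. Arntl had a log2 fold change of -2.01 ± 1.27 in CD4 and one of 2.22 ± 0.69 in Treg (adjusted p = 0.947 and 0.156, limma), and their difference was 4.23 ± 0.92 (adjusted p = 0.659). Arntl thus had the same signs as its repressor Nr1d2 in both subsets, on 2 to 97 reads per library. Over the tested clock genes, Arntl included, 5 fold changes were positive and 7 negative in CD4, and 12 and 4 in Treg.

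**Figure D2:**
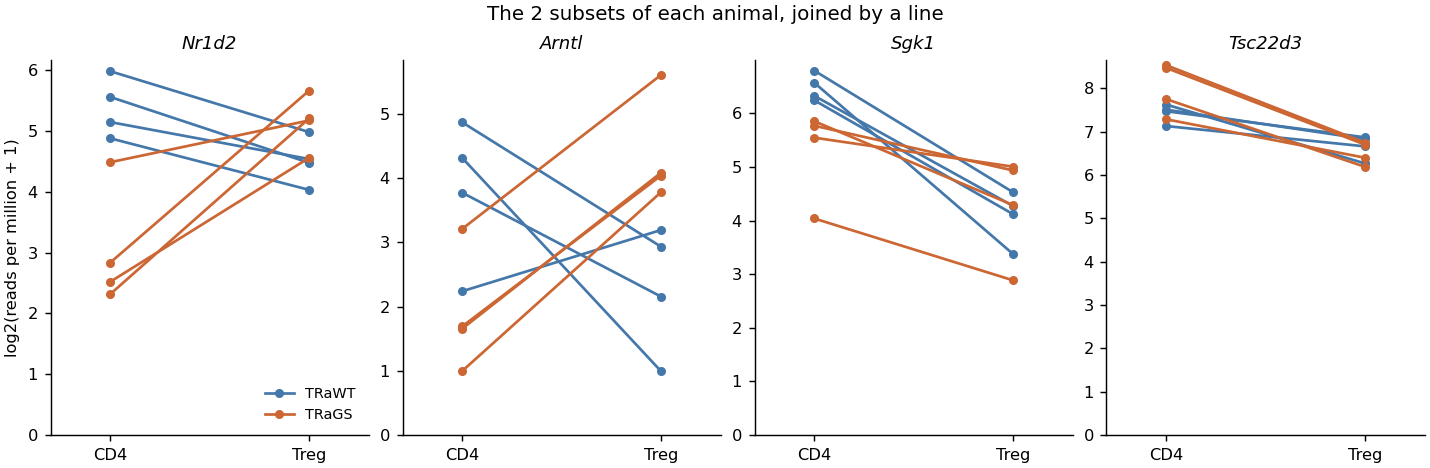
Each line joins the CD4 and the Treg library of 1 mouse, on a vertical axis of log2(RPM + 1), RPM as defined above without Gm42418; blue is TRaWT (4 mice) and orange TRaGS (4 mice). Nr1d2 lines go down in all TRaWT mice and up in all TRaGS mice, Arntl lines go up in all TRaGS mice and down in 3 of 4 TRaWT mice, and Sgk1 and Tsc22d3 lines go down in all 8.

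Nr1h2 (chromosome 7, 44549616 to 44553951), the liver X receptor beta, senses oxysterols and induces cholesterol efflux genes. Its CD4 values were 84.0, 86.0, 92.6 and 79.3 in TRaWT and 187, 235, 145 and 87.1 in TRaGS. The TRaWT libraries were close together, and 3 of 4 TRaGS libraries were above all of them, with replicate 4 inside their range. The log2 fold change was 0.84 ± 0.53 (adjusted p = 0.947, exact two-sided permutation p = 0.0571), and 1.29 and 0.39 with TRaGS replicates 1 and 2 or 3 and 4 alone. In Treg the values ran from 53.7 to 105 in TRaWT and from 56.5 to 95.9 in TRaGS, with a log2 fold change of 0.19 ± 0.36.

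Nr2c2 (chromosome 6, 92091390 to 92174294), the orphan receptor TR4, kept a narrow range within each group. Its CD4 values were 552, 648, 482 and 556 in TRaWT and 709.8, 892, 644 and 579.7 in TRaGS. Its Treg values were 635, 647, 749 and 666 in TRaWT and 789.8, 873, 639 and 719 in TRaGS. Both pairs overlapped, with TRaGS replicates 1 and 2 the highest in each subset. The log2 fold changes were 0.32 ± 0.28 and 0.16 ± 0.16, with a Treg interval of -0.16 to 0.47.

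Esrra (chromosome 19, 6910977 to 6921813), the estrogen-related receptor alpha, which drives mitochondrial genes without binding estrogen, was read at 5 to 72 reads per library. In CD4 its values were 33.1, 49.3, 29.4 and 37.8 in TRaWT and 23.5, 10.6, 22.6 and 39.0 in TRaGS, with 3 of 4 TRaGS libraries below all TRaWT libraries. In Treg they ran from 5.83 to 27.2 in TRaWT and from 13.3 to 52.1 in TRaGS. The log2 fold changes of -0.73 ± 1.02 and 0.42 ± 0.71 had intervals of -2.72 to 1.26 and -1.01 to 1.85, too wide to tell a 2-fold change from none. In CD4 the width follows the variance of genes at this level, not the spread of Esrra itself. Without a variance trend the CD4 limma p was 0.151 (adjusted p = 0.955). The exact two-sided permutation p there was 0.114.

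Vdr (chromosome 15, 97854425 to 97910630), the vitamin D receptor, was at the edge of detection. In CD4 it had no read in 2 of 4 TRaWT and 3 of 4 TRaGS libraries, and a single TRaWT library, replicate 2, held 35.1 normalised counts from 42 reads. In Treg its values were 2.47, 0, 1.17 and 0 in TRaWT and 14.9, 11.6, 6.69 and 1.09 in TRaGS, with a mean of 4.74, under the minimum of 5 for testing. Of the 4 TRaGS Treg libraries, 3 were above all TRaWT ones (exact two-sided permutation p = 0.0857). With 0 to 18 reads in the Treg libraries, no fold is given for Treg. In CD4 the fitted log2 fold change of -1.41 ± 1.36 rests on TRaWT replicate 2, and depends on the scale: on recovered reads it was -4.00 with edgeR (adjusted p = 0.669) and -4.22 with DESeq2.

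**Figure D3:**
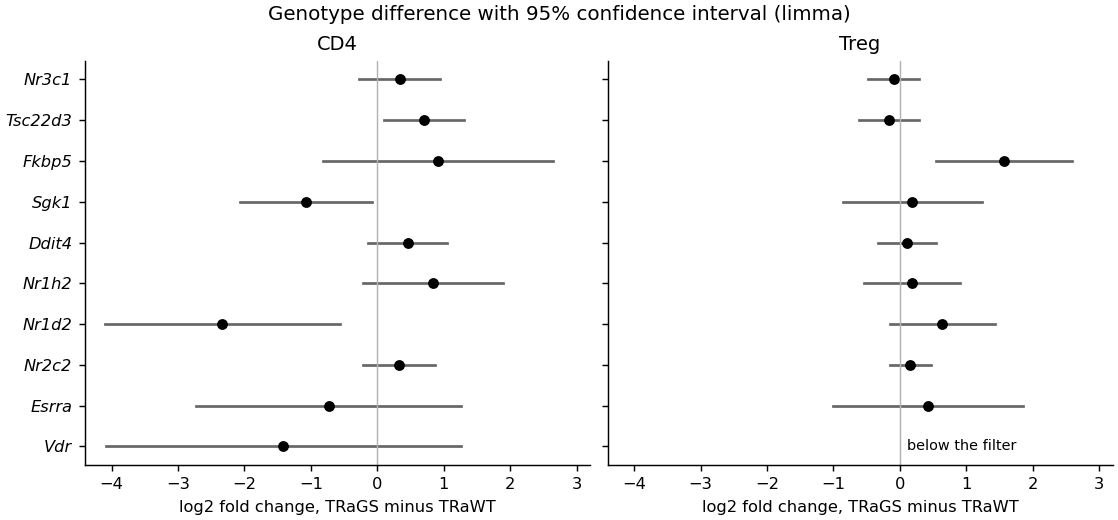
The horizontal axis is the log2 fold change of TRaGS over TRaWT on log2(normalised count + 1), with CD4 on the left and Treg on the right. Points are limma estimates and lines 95% confidence intervals, from 4 libraries per genotype, unadjusted for the number of genes; the intervals of Tsc22d3, Sgk1 and Nr1d2 in CD4 and of Fkbp5 in Treg leave out 0, and none of the 10 genes passed the adjusted test.

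Counted over the members, limma called 0 of 10 in CD4, where it called 0.0575% of all 10426 genes tested, and 3 of 10 had an unadjusted p under 0.05 (Nr1d2, Tsc22d3 and Sgk1) against 5.17% of all. That count was 1 without TRaWT replicate 3 and with TRaGS replicates 3 and 4 alone, 2 without TRaWT replicate 1 or 4 or TRaGS replicate 1 or 2, and 5 with TRaGS replicates 1 and 2 alone. The genotypes did not overlap for 2 of 10, against 3.16% of all genes. On recovered reads, edgeR and DESeq2 also called 0 of 10, with 3 and 4 at an unadjusted p under 0.05. In Treg limma called 0 of the 9 tested, against 0.959% of 11051 genes, and 1 of 9 (Fkbp5) had an unadjusted p under 0.05, against 9.12%. No member was without overlap in Treg, against 5.07% of genes. There edgeR and DESeq2 each called 0 with 1 at an unadjusted p under 0.05.

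For the difference between subsets, limma called 0 of the 9 members tested and 0% of 9914 genes, and 2 of 9 (Nr1d2 and Sgk1) had an unadjusted p under 0.05, against 5.96%. A limma model of all libraries together left out the pairing of the subsets within a mouse. It called 0 of the 9 and had 2 at an unadjusted p under 0.05, Nr1d2 and Tsc22d3 (adjusted p = 0.546 and 0.835). In that model Sgk1 was no longer under 0.05 before adjustment (adjusted p = 0.862). Sgk1 had a difference of 1.26 ± 0.51 (adjusted p = 0.832, without overlap, exact two-sided permutation p = 0.0286) and Tsc22d3 one of -0.87 ± 0.41 (adjusted p = 0.840). The median log2 fold change of the members was 0.33 in CD4, 0.19 in Treg and -0.17 for the difference, beside -0.01, 0.01 and 0.01 over all genes. Upper-quartile scaling moved the median of all genes to -0.14 in CD4 and 0.17 for the difference, and turned the sign of 1 member value, the Nr2c2 difference, from -0.17 to 0.0035.

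Between the subsets, 3 of the 9 members (Tsc22d3, Sgk1 and Ddit4) were lower in Treg than in CD4 cells in all 8 mice, against 3.41% of genes, and 0 of 9 were higher in all 8, against 4.71%. Sgk1 had a Treg minus CD4 log2 difference in RPM of -1.72 ± 0.87 (SD, n = 8). It was -2.41 ± 0.53 in TRaWT and -1.02 ± 0.44 in TRaGS mice (n = 4 each). Tsc22d3 differed by -1.14 ± 0.54, with -0.78 ± 0.40 in TRaWT and -1.50 ± 0.42 in TRaGS mice, where it was thus lower by more than Sgk1. Ddit4 differed by -0.67 ± 0.48, with single mice from -1.28 to -0.006. With Gm42418 in the total, Ddit4 was lower in 7 of 8 mice. Nr1h2 and Esrra were lower in Treg in 7 of 8 mice, by -0.68 ± 0.44 and -0.62 ± 1.33. Nr3c1 (-0.27 ± 0.44), Nr2c2 (0.10 ± 0.17), Fkbp5 (0.36 ± 1.85) and Nr1d2 (0.61 ± 1.74), like Esrra, had mean differences smaller than their SD. Fkbp5 was higher in Treg in 4 mice and lower in 4. No test was made between the separately normalised tables.

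Nr1d2 was the 1 member of 9 with opposite directions in every TRaWT and every TRaGS mouse, a pattern held by 0.686% of genes. Its Treg minus CD4 difference was -0.88 ± 0.21 in TRaWT and 2.11 ± 1.03 in TRaGS mice (SD, n = 4 each). In RPM its order of group means was CD4 TRaWT (42.8), Treg TRaGS (35.8), Treg TRaWT (22.3) and CD4 TRaGS (9.06), and each neighbouring pair overlapped. For Sgk1 the order was CD4 TRaWT (89.6), CD4 TRaGS (42.9), Treg TRaGS (21.4) and Treg TRaWT (16.5), and only the first pair did not overlap. Tsc22d3 ran from CD4 TRaGS (273) through CD4 TRaWT (173) and Treg TRaWT (101) to Treg TRaGS (91.2), and only the middle pair did not overlap. Nr3c1 ran from CD4 TRaGS (218) through CD4 TRaWT (188) and Treg TRaWT (172) to Treg TRaGS (166).

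For the remaining members the order in mean RPM was as follows, with every neighbouring pair overlapping, as for Nr3c1. Ddit4 and Nr1h2 were highest in CD4 TRaGS (252 and 69.0), then CD4 TRaWT (195 and 40.5), Treg TRaGS (142 and 35.2) and Treg TRaWT (135 and 30.9). Fkbp5 ran from Treg TRaGS (40.9) and CD4 TRaGS (40.3) to Treg TRaWT (19.5) and CD4 TRaWT (14.6). Nr2c2 ran from Treg TRaGS (324) through CD4 TRaGS (303) and Treg TRaWT (286) to CD4 TRaWT (265). Esrra ran from CD4 TRaWT (17.7) through CD4 TRaGS and Treg TRaGS (10.9 each) to Treg TRaWT (7.80), and Vdr from CD4 TRaWT (4.46) through Treg TRaGS (3.71) and Treg TRaWT (0.378) to CD4 TRaGS (0.243).

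Across all 16 libraries, as deviations from the mean of each group, Tsc22d3 and Ddit4 varied together (Pearson r = 0.80), as did Tsc22d3 and Nr2c2 (0.70). Fkbp5 was at -0.19 with Tsc22d3, 0.08 with Ddit4 and 0.49 with Sgk1, and Nr3c1 was at 0.32 with Tsc22d3. Sgk1 and Nr2c2 ran opposite (-0.75), as did Tsc22d3 and Nr1d2 (-0.62). These are descriptions over 16 libraries that share mice, depth and normalisation. Of 5151 genes ranked in the same way, the 3 most like Nr3c1 were Heatr6 (0.87), Ep300 (0.85) and Dcaf6 (0.85), and the 3 most like Tsc22d3 were Ttc13 (0.90), Cnot6 (0.89) and Rap1b (0.88).

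The wider gene lists put these members in context. Of 49 nuclear receptor genes, 20 were tested in CD4 and 0 were called by limma (1 with an unadjusted p under 0.05, Nr1d2), and 22 were tested in Treg with 1 called. That gene was Rora, a receptor that binds the same sites as Nr1d2 and activates where Nr1d2 represses: it rose in Treg from 437 ± 95.4 to 1043 ± 105 normalised counts (SD, n = 4 each), a log2 fold change of 1.28 ± 0.17 (adjusted p = 4.17e-06), without overlap. Without a variance trend its adjusted p was 0.185.

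Of 28 glucocorticoid-response genes, 19 were tested in CD4 and 20 in Treg, and limma called 0 in both, with 4 and 2 at an unadjusted p under 0.05. Their fold changes had mixed signs, 11 positive and 8 negative in CD4 and 11 and 9 in Treg, with medians of 0.12 and 0.06. Anxa1, the anti-inflammatory annexin that glucocorticoids induce, was at 16.8 ± 10.9 in TRaWT and 0.244 ± 0.489 in TRaGS CD4 cells without overlap (adjusted p = 0.943). Il1r2, the decoy receptor for interleukin 1, was at 16.1 ± 16.2 and 52.6 ± 8.53 in Treg (log2 fold change 2.51 ± 0.76, adjusted p = 0.135, limma). It was also without overlap, as were 5.07% of genes tested in Treg. Il7r, the interleukin 7 receptor, had positive fold changes of 0.46 ± 0.19 and 0.32 ± 0.14 (adjusted p = 0.943 and 0.460).

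Of 21 genes for receptor chaperones, steroid-converting enzymes and co-regulators, 20 were tested in each subset with 0 called and 2 at an unadjusted p under 0.05 in each. Hsd11b1, which regenerates active glucocorticoid inside cells, was at 191 ± 97.6 in TRaWT and 89.2 ± 42.3 in TRaGS CD4 cells (log2 fold change -1.08 ± 0.53, adjusted p = 0.947). Bag1, an Hsp70 co-chaperone, was at 139 ± 90.1 and 212 ± 64.7 in CD4 (log2 fold change 0.95 ± 0.48, adjusted p = 0.947). In Treg the co-repressor Nrip1 was at 1099.6 ± 472 and 1358 ± 179 (0.38 ± 0.18, adjusted p = 0.490) and the Hsp90 co-chaperone Stip1 at 293 ± 40.7 and 217 ± 60.7 (-0.48 ± 0.23, adjusted p = 0.511). Of 18 clock genes, 12 were tested in CD4 and 16 in Treg with 0 called, and 1, Arntl, had an unadjusted p under 0.05, in Treg. Per1, a clock gene that glucocorticoids also induce, was at 16.6 ± 8.54 and 56.7 ± 36.5 in CD4 (log2 fold change 1.69 ± 1.05, adjusted p = 0.947).

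For the partners of single members, Smpdl3a, a liver X receptor target, was at 216 ± 123 in TRaWT and 106 ± 77.5 in TRaGS CD4 cells (adjusted p = 0.947), the 1 of 9 tested liver X receptor targets with an unadjusted p under 0.05 in CD4. Treg had 0 of 9 at that level, and limma called 0 in both. Of 13 partners and targets of Esrra, 12 were tested in each subset with 0 called and 1 and 0 at an unadjusted p under 0.05, and Ndufb7, a respiratory complex I subunit, was at 128 ± 44.8 and 254 ± 96.6 in CD4 (unadjusted p = 0.0274, adjusted p = 0.947, limma). Of 18 genes of the Sgk1, mTOR and Foxo pathways, 16 were tested in each subset with 0 called and 2 and 1 at an unadjusted p under 0.05. Foxo1, a Sgk1 substrate and regulator of T cell quiescence, was at 961 ± 96.1 and 747 ± 76.2 in Treg (log2 fold change -0.36 ± 0.15, adjusted p = 0.410, limma). It was without overlap, as were 5.07% of genes tested in Treg. Of 6 other vitamin D pathway genes, only Pdia3 was tested, with fold changes of 0.16 ± 0.26 and 0.12 ± 0.15.

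A list of 20 genes that tissue dissociation induces, many of them immediate early genes such as Fos and Jun, was set beside the members. In CD4 18 were tested with 0 called and 1 at an unadjusted p under 0.05, and the median log2 fold change was 0.14. In Treg 18 were tested, 13 had negative fold changes, 5 had an unadjusted p under 0.05 and 1, Jun, was called: it fell from 499 ± 266 to 251 ± 160 normalised counts (log2 fold change -1.03 ± 0.27, adjusted p = 0.0496). The call was lost in 14 of 19 alternative settings. The part of these genes in the Treg values of Fkbp5 and Nr1d2 was not tested.

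**Figure D4:**
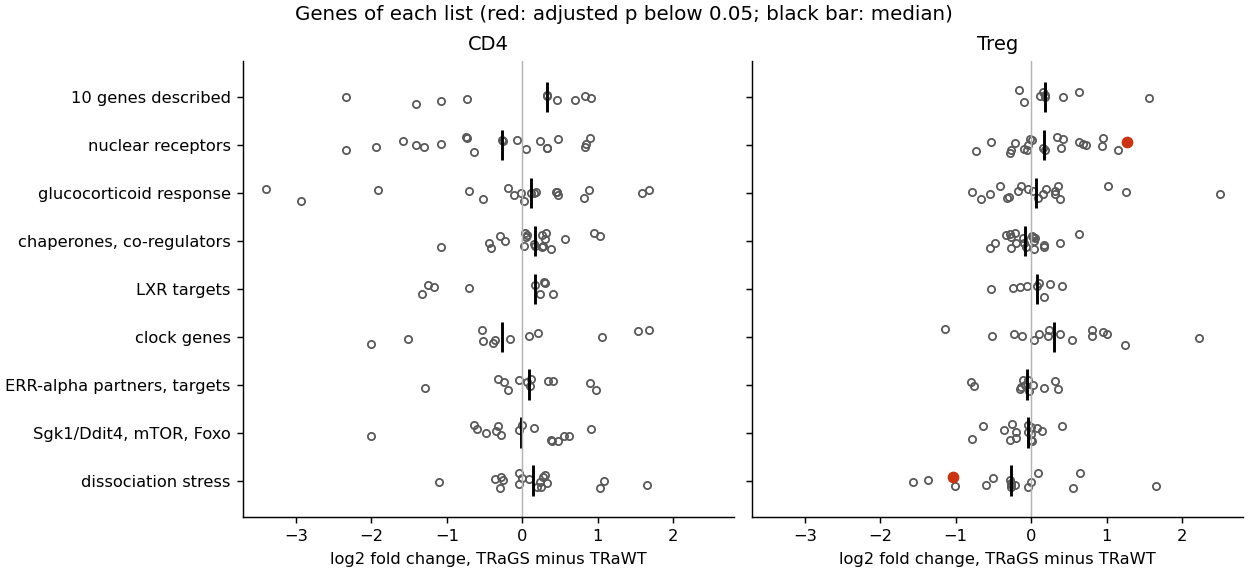
Each point is 1 tested gene of a list, with CD4 on the left and Treg on the right; the horizontal axis is the log2 fold change of TRaGS over TRaWT, points are spread vertically for visibility, and black bars mark list medians. The 2 filled red points, both in Treg, are Rora on the right and Jun on the left, and every other gene of these lists missed the adjusted threshold of 0.05; some genes stand in more than 1 list.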

How the data were processed

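Normalised counts were deposited by the authors as 2 tables, 1 per subset. Per the file values, the deposited signal is a read count divided by 1 factor per library, and whole reads were recovered for 100% of values (within 0.001). The build is GRCm38, per the submitters' processing notes; for aligner and counter, nothing is given in the sources used here. Genes with a mean of at least 5 were tested with limma 3.58.1 (R 4.3.3) on log2(value + 1), letting the variance follow the level and adjusting by Benjamini-Hochberg at 0.05, within each table and on each mouse's Treg minus CD4 difference. The scale understates changes of low genes. In CD4 the prior degrees of freedom were infinite, so SEs and p-values there do not measure a gene's own spread; in Treg they were 36.8. Members were also compared with exact permutation tests, unadjusted. Labels call the replicates biological. Fits were tested on simulated data. No 2 libraries held identical values.

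From each other list and subset the rule named called genes (at most 6) or, with none called, the 2 with the smallest p; not all are described. The members, lists and rules were chosen with earlier results of these data known, and E-box counts and the split to TRaGS replicates 3 and 4 alone were added after seeing the data. Alternatives on recovered reads were edgeR 4.0.16 and DESeq2 1.42.0; others were pseudocounts of 0.5 and 5, a minimum mean of 20 or none, upper-quartile scaling, no variance trend, a replicate block and left-out libraries. Symbols matched 47224 of 47643 identifiers; coordinates come from GENCODE mouse release 21 and promoters from RefSeq. Same-mouse libraries are paired by the labels; their deviations correlated at -0.003 to 0.079. Figures were drawn with matplotlib 3.10.9.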

Additional observations from a re-analysis of the deposited data

Results flagged for a closer look

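Nr1d2 in CD4 cells of TRaGS mice had 1 library far from the other 3: replicate 3, at 45.1 normalised counts against 10.8 to 12.6. Vdr in CD4 cells had 1 TRaWT library, replicate 2, at 35.1 normalised counts against 0 to 3.27, and 1 TRaGS library, replicate 3, at 2.05 against 0 in the others. The Vdr value of 2.05 rests on 2 reads. These 3 came from 40 groups of 4 libraries examined, and chance alone marks about 1 group in 20 for continuous values. That rate does not hold for Vdr, with values at or near 0. A group with a single value above 0 is marked whatever that value is.

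The Treg minus CD4 difference of Nr1d2 had opposite signs in the genotypes, negative in 4 of 4 TRaWT mice and positive in 4 of 4 TRaGS mice. The genotype effects in the subsets differed by 2.97 log2 units (adjusted p = 0.604 with limma), which does not pass the correction over all genes.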

How the results depend on the processing

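Over all genes, limma called 6 genes in CD4, 106 in Treg and 0 for the difference between subsets. In CD4 the count was 1 with no filter, 2 with upper-quartile scaling, 0 with no variance trend, 27 with TRaGS replicates 1 and 2 alone, 10 with TRaGS replicates 3 and 4 alone, 3 with edgeR and 10 with DESeq2, and from 3 (without TRaWT replicate 2, 3 or 4) to 9 when single libraries were left out. In Treg it was 62 with no filter, 0 with no variance trend, 42 with TRaGS replicates 1 and 2 alone, 45 with replicates 3 and 4 alone, and from 56 (without TRaGS replicate 3; 61 without TRaGS replicate 4) to 108 with single libraries left out. For the difference it was 3 with all libraries in 1 model, which left out the pairing of the subsets within a mouse. It was 0 to 1 with single mice left out (1 without TRaWT replicate 4). The cause was not tested, except that fewer libraries enter some of these fits.

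The 28 fold changes of the members were recomputed 521 times in all. The direction and side of the threshold held in 504, the direction turned in 16, and 1 call was gained: Fkbp5 in Treg, with values from 0.82 (without TRaWT replicate 3) to 2.06 (without TRaWT replicate 2). With TRaGS replicates 3 and 4 alone, Ddit4 was at -0.064 in CD4 and -0.074 in Treg, and Nr3c1 at 0.17 in Treg and 0.13 for the difference. Of the other named genes, which are not members, Srebf1 turned from -1.33 to 0.039 and Egr2 from 1.65 to -0.17 in CD4 with these replicates. With replicates 1 and 2 alone, Tsc22d3 was at 0.052 and Sgk1 at -0.53 in Treg. Upper-quartile scaling put the Nr2c2 difference at 0.0035. With single libraries left out, Treg values ran from -0.22 to 0.034 for Nr3c1, -0.055 to 0.66 for Sgk1, -0.051 to 0.32 for Ddit4 and -0.017 to 0.66 for Esrra, and the Fkbp5 difference from -0.22 to 1.29. Il1r2 in Treg was called only without TRaWT replicate 1 (3.21, adjusted p = 0.038 with limma; 0.038 to 0.643 over its alternatives), and Nrip1 in Treg only without TRaWT replicate 2 (0.65, adjusted p = 0.0466; 0.0466 to 0.873 over its alternatives). Between subsets, the means over 8 mice kept their sign under each scaling. With Gm42418 in the total, Nr3c1 was higher in Treg in 5 mice in place of 2, Nr2c2 in 7 in place of 6 and Ddit4 in 1 in place of 0, and the TRaGS mean of Esrra turned from -0.023 to 0.053 (0.040 with the upper quartile).

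Libraries that share a replicate number between genotypes correlated at 0.004 to 0.037. Libraries of the same mouse correlated at only -0.003 to 0.079. The measure therefore cannot show whether the replicate numbers pair the libraries. With the number as a replicate block, 4 genes were called in CD4, 112 in Treg and 0 for the difference, none a member, and the Sgk1 difference had an unadjusted p of 0.0659 in limma (adjusted p = 0.766), leaving 1 member under 0.05. Depth limits Vdr, Esrra, Fkbp5 and Arntl, whose values rest on few reads. It also limits Nr1d2 in CD4 TRaGS libraries, at 11 to 44 reads.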

Other observations

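Windows around other annotated starts of Sgk1 held glucocorticoid half-sites as single copies, 195 bases before the first start and 13 before the fourth. The single Fkbp5 window held neither half-site class and had its E-box 169 bases before the start.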
